A study of Saccharomyces cerevisiae with 24 samples.

Results

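RNA polymerase I and III carry out most of the transcription of a growing yeast cell, and 42 genes that encode them, the factors that place them on their genes and the repressor of RNA polymerase III are described here, of 4073 genes that could be named on the arrays. The genes were listed by symbol and role, with earlier results of these data known, and all 42 were measured on every array, each by 2 features. They comprise 24 subunits, of which 7 belong to RNA polymerase I alone, 10 to RNA polymerase III alone, 2 to both and 5 to all 3 nuclear RNA polymerases, 17 initiation factors and the repressor *MAF1*. RNA was compared from *S. cerevisiae* strains of the S288c background, mating type a, in which the native gene for the transcription factor *FZF1* had been deleted with KANMX and 1 of 4 alleles was integrated at *ura3* on a plasmid that carries *URA3*. The alleles were the full length *S. paradoxus* gene, C.P. (a chimera whose 5′ noncoding region comes from *S. cerevisiae* and whose coding region comes from *S. paradoxus*), P.C. (the reciprocal chimera) and the full length *S. cerevisiae* gene. Each was sampled 15 min after and immediately before (0 min) the addition of sodium sulfite at 1 mM, with 3 arrays in each of the 8 groups. All groups grew in rich medium (YPD) with L-tartaric acid at 75 mM and all lack the native *FZF1*. By the methods each culture was sampled at both times, and the labels do not say that a replicate number marks a culture, so the arrays were compared as unpaired. The methods name independent transformants of each construct, and no culture left without sulfite for 15 min was placed on an array, so sulfite and 15 min of further growth cannot be told apart.

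Each array set 1 sample against a pool of all RNA samples, and a value is the log2 ratio of sample over pool, centred on the median gene of the array. A value therefore orders samples for 1 gene, and does not order genes by abundance. A response is the value at 15 min minus that at 0 min, and a gene is said to have risen or fallen where limma gave an adjusted p under 0.05 (Benjamini-Hochberg over 4071 genes). In RNA from whole cultures, a lower value from fewer cells that express a gene cannot be told apart from less RNA per cell. The SD of a member over the 3 arrays of a group had a median of 0.16 (range 0.01 to 0.52), and 3 arrays in a group limit the precision. The 2 features of a member correlated with a median of 0.983 over arrays, and the lowest correlation was 0.62, for *TFC1*. One array goes against its label: that labelled *S. cerevisiae*, 0 min, replicate 2 read −3.63 for *FZF1*, whose probes are of *S. cerevisiae* design, where the other 2 of the group read 0.18 and −0.11, and 1.20 for *URA3*, where they read −1.97 and −1.89. The *URA3* reading alone does not mark this array, since *URA3* also lay apart on 1 array of other groups, at 2.30 for C.P. at 15 min (−0.40 and 0.52 on the other 2), 1.34 for C.P. at 0 min (−1.62 and −0.66), 1.17 for P.C. at 15 min (−0.57 and −0.01) and 0.01 for P.C. at 0 min (−1.93 and −1.90). On those 4 arrays *FZF1* read −2.47 and −2.90 for C.P., below 0 as on every other C.P. array, and 1.84 and 0.37 for P.C., above 0. In the comparison of the alleles, the subunit medians, the order of the alleles and the differences of response of named genes are also given without this array. The group means, the tests of allele and the values set against gene length include it, and ranges of counts without each array are given at the end. Since the pool holds the same samples, the ratios cannot show whether strain markers are present.

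RNA polymerase I transcribes the repeated ribosomal RNA genes, and RNA polymerase III makes 5S ribosomal RNA, transfer RNAs and other small RNAs. Both enzymes share an architecture with RNA polymerase II: 2 large subunits form the active site, smaller subunits hold them together or form a stalk, and TFIIF-like and TFIIS-like proteins that are separate factors for RNA polymerase II are built in. In yeast the genes of these machines belong with those of ribosome synthesis, whose transcription follows growth signals, and Maf1 binds and represses RNA polymerase III when growth conditions worsen.

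After sulfite, 32 of the 42 genes fell, 6 rose and 4 did not pass the test in the mean response over the 4 alleles. Of all 4071 genes 79.1% passed, 39.6% downward and 39.5% upward, so passing as such does not set these genes apart. By size, 25 of 42 fell at least 2-fold, against 10.0% of all genes, and none rose at least 2-fold, against 9.87%. The median response was −1.27 over the 42 genes and 0.01 over all genes. Every 15 min array lay below every 0 min array for 28 members (19.5% of all genes with complete values) and above for 3 members (19.2%).

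**Figure D1:**
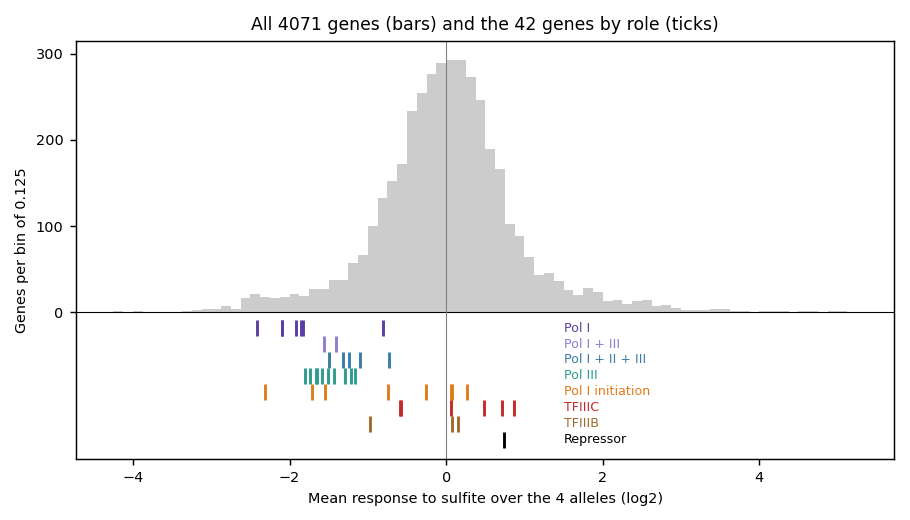
Mean response to sulfite over the 4 alleles (log2, x axis) for all 4071 genes, as bars of genes per bin (y axis), and for the 42 genes as ticks in a row for each role. The ticks of the subunits lie between −2.42 and −0.73, whereas those of the initiation factors run from −2.32 to 0.87.

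All 7 subunits of RNA polymerase I fell, with a median response of −1.91, and 6 of them fell at least 2-fold. *RPA34* (YJL148W), which with *RPA49* encodes a TFIIF-like pair of subunits, fell the most of all 42 genes. Its lowest, median and highest values were −1.91, −1.60 and −1.07 at 15 min, against 0.44, 0.89 and 1.24 at 0 min (12 arrays each, in this order also for the genes that follow). Its response was −2.42 (SE 0.09), 5.35-fold lower (limma, adjusted p = 4.52e-16), and 51 genes on the arrays had a lower one. *RPA34* averaged −1.29, −1.68, −1.66 and −1.65 at 15 min with the *S. paradoxus*, C.P., P.C. and *S. cerevisiae* alleles, against 0.90, 0.74, 0.70 and 1.05 at 0 min, so that each group at 15 min lay far below each group at 0 min. Its partner *RPA49* had a response of −2.10 (SE 0.08), with values of −1.81, −1.43 and −0.92 (lowest, median and highest) at 15 min, against 0.57, 0.63 and 1.01 at 0 min.

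*RPA43*, the stalk subunit that contacts the initiation factor Rrn3, had a response of −2.09 (SE 0.07). Its values were −1.63, −1.41 and −1.04 at 15 min, against 0.47, 0.71 and 0.97 at 0 min. *RPA14*, the other stalk subunit, fell the least of the class, to −0.75, −0.48 and −0.05 at 15 min, against 0.12, 0.37 and 0.70 at 0 min. Its groups did not overlap either, but its response was −0.81 (SE 0.06; limma, adjusted p = 2.48e-10), less than that of its stalk partner (95% interval −0.95 to −0.68, against −2.24 to −1.95 for *RPA43*). By allele, *RPA14* averaged −0.16, −0.62, −0.45 and −0.50 at 15 min (*S. paradoxus*, C.P., P.C. and *S. cerevisiae* alleles), against 0.39, 0.37, 0.31 and 0.45 at 0 min.

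The 2 large subunits that form the active site, *RPA190* and *RPA135*, had responses of −1.91 (SE 0.07) and −1.85 (SE 0.09). *RPA190* read −1.53, −1.23 and −0.54 at 15 min, against 0.61, 0.73 and 0.91 at 0 min. *RPA135* read −1.91, −1.21 and −0.59 at 15 min, against 0.45, 0.59 and 1.04 at 0 min. *RPA12*, which supports cleavage of the nascent RNA, had a response of −1.82 (SE 0.09), close to those of the large subunits.

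**Figure D2:**
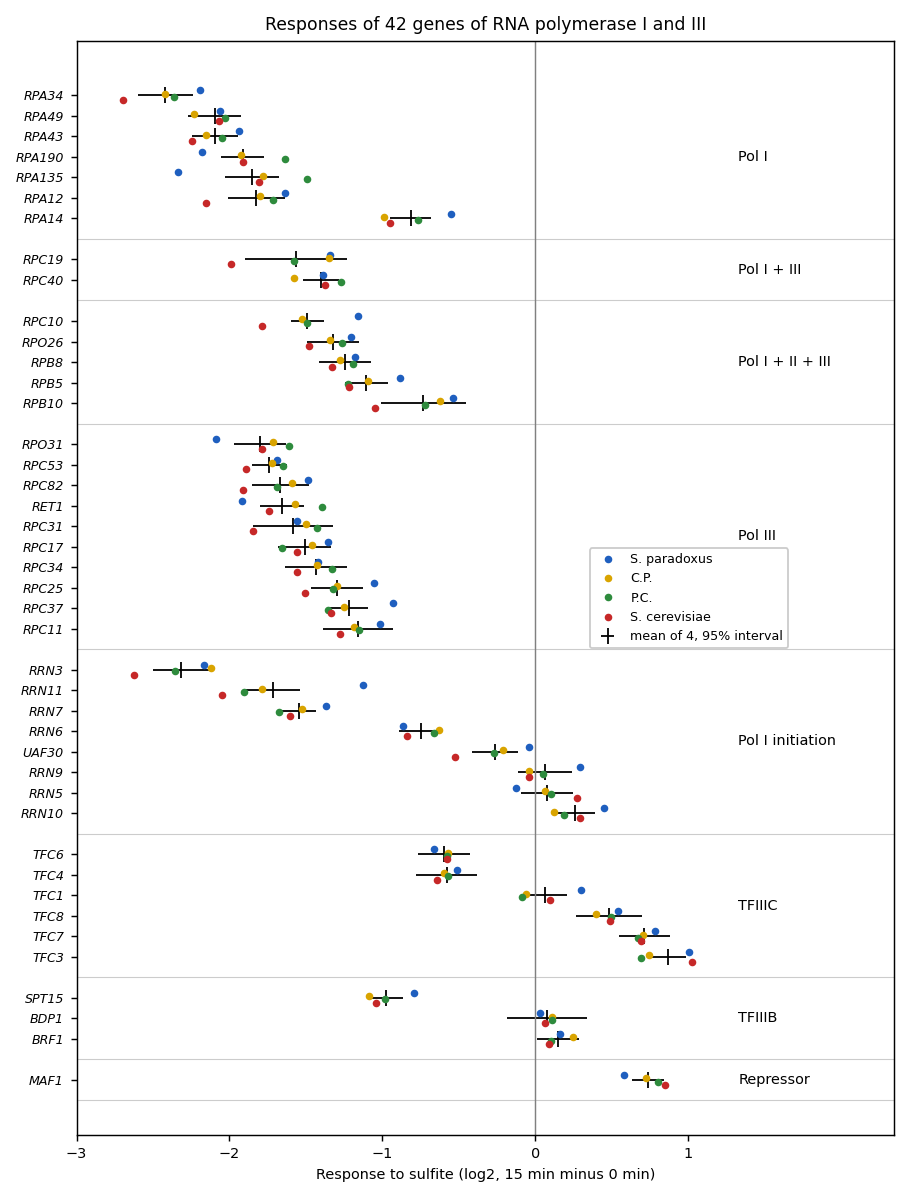
Response to sulfite (log2, 15 min minus 0 min, x axis) of each of the 42 genes, grouped by role from top to bottom. Dots are the 4 alleles (3 arrays at each time) and black marks the mean with its 95% interval from limma. All dots of the 24 subunits lie below 0. Of the 17 initiation factors 12 have a mean to the right of every subunit, as does the median of all genes (0.01).

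The subunits shared between the polymerases fell as well, by less than most subunits of RNA polymerase I. *RPC19* and *RPC40* form the platform on which RNA polymerase I and III assemble, the counterpart of the bacterial alpha dimer. *RPC19* read −1.41, −0.88 and −0.26 at 15 min, against 0.02, 0.69 and 1.39 at 0 min, a wide spread that left a small gap between the times, and its response was −1.56 (SE 0.16; limma, adjusted p = 1.62e-08). Its group means with the *S. paradoxus*, C.P., P.C. and *S. cerevisiae* alleles were −0.62, −0.89, −1.05 and −1.01 at 15 min, against 0.72, 0.46, 0.52 and 0.98 at 0 min. *RPC40* varied less between arrays, at −1.08, −0.84 and −0.59 at 15 min, against 0.44, 0.60 and 0.74 at 0 min, and its response was −1.40 (SE 0.06). Its group means were −0.81, −0.95, −0.72 and −0.79 at 15 min (*S. paradoxus*, C.P., P.C. and *S. cerevisiae* alleles), against 0.58, 0.63, 0.55 and 0.59 at 0 min.

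The 5 small subunits common to RNA polymerase I, II and III had a median response of −1.24 and 4 fell at least 2-fold. *RPC10* (Rpb12 of RNA polymerase II), a zinc-binding subunit, had the lowest response of these, −1.49 (SE 0.05). It read −1.10, −0.90 and −0.52 at 15 min, against 0.43, 0.60 and 0.90 at 0 min. *RPO26* (Rpb6), *RPB8* and *RPB5* had responses of −1.32 (SE 0.08), −1.24 (SE 0.08) and −1.10 (SE 0.07), each with all 15 min arrays below all 0 min arrays. *RPB10* fell the least of the 24 subunits, with a response of −0.73 (SE 0.13; limma, adjusted p = 4.49e-05). Its arrays read −0.73, −0.34 and 0.22 at 15 min, against −0.07, 0.48 and 1.17 at 0 min, and it was the only subunit whose times overlapped. With the *S. paradoxus*, C.P., P.C. and *S. cerevisiae* alleles it averaged −0.10, −0.34, −0.36 and −0.33 at 15 min, against 0.44, 0.28, 0.35 and 0.72 at 0 min.

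All 10 subunits of RNA polymerase III fell at least 2-fold, with a median response of −1.54 and a narrow range of −1.80 to −1.16. The SD of the responses was 0.22 over these 10 genes and 0.50 over the 7 of RNA polymerase I, or 0.22 over the 6 of RNA polymerase I other than *RPA14*. *RPO31*, the largest subunit, read −1.43, −1.09 and −0.47 at 15 min, against 0.52, 0.75 and 0.83 at 0 min, a response of −1.80 (SE 0.08; limma, adjusted p = 1.89e-14). It averaged −1.33, −1.02, −0.89 and −1.17 at 15 min with the *S. paradoxus*, C.P., P.C. and *S. cerevisiae* alleles, against 0.76, 0.70, 0.72 and 0.61 at 0 min. *RET1*, the second largest subunit, followed at −1.66 (SE 0.07).

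*RPC53* and *RPC37*, the TFIIF-like pair that acts in termination and reinitiation, had responses of −1.74 (SE 0.06) and −1.22 (SE 0.06). The values of *RPC53* were the most even of the class, at −1.06, −1.01 and −0.75 at 15 min, against 0.60, 0.77 and 1.05 at 0 min. The 3 subunits that bind initiation factors, *RPC82*, *RPC31* and *RPC34*, had responses of −1.67 (SE 0.09), −1.58 (SE 0.13) and −1.43 (SE 0.10). The stalk genes *RPC17* and *RPC25* had responses of −1.51 (SE 0.08) and −1.29 (SE 0.08). *RPC11*, which cleaves nascent RNA and is needed for termination, fell the least of the class, to −0.88, −0.59 and −0.27 at 15 min, against 0.06, 0.67 and 0.84 at 0 min, with a response of −1.16 (SE 0.11). Its group means with the *S. paradoxus*, C.P., P.C. and *S. cerevisiae* alleles were −0.51, −0.61, −0.61 and −0.68 at 15 min, against 0.51, 0.58, 0.54 and 0.60 at 0 min.

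The initiation factors of RNA polymerase I split by complex: the factor that travels with the polymerase and the core factor fell, whereas the genes of the upstream activating factor stayed within 0.26 of 0. Of the 8 genes, 5 fell, 1 rose and 2 did not pass, where 39.6% of all genes fell and 39.5% rose. *RRN3* (YKL125W), which binds RNA polymerase I and makes it competent for initiation, read −2.15, −1.53 and −1.17 at 15 min, against 0.45, 0.80 and 1.04 at 0 min. Its response of −2.32 (SE 0.09; limma, adjusted p = 1.32e-15) was 4.98-fold lower and second only to that of *RPA34* among the 42 genes. By allele, *RRN3* averaged −1.42, −1.45, −1.51 and −1.75 at 15 min (*S. paradoxus*, C.P., P.C. and *S. cerevisiae* alleles), against 0.74, 0.67, 0.84 and 0.88 at 0 min.

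Of the core factor, which binds the core element of the ribosomal DNA promoter, *RRN11* and *RRN7* (the TFIIB-like subunit) had responses of −1.72 (SE 0.08) and −1.54 (SE 0.05). *RRN7* read −1.19, −0.98 and −0.55 at 15 min, against 0.49, 0.61 and 0.76 at 0 min. *RRN6*, the third subunit, fell by less, to −0.72, −0.40 and −0.10 at 15 min, against −0.10, 0.32 and 0.52 at 0 min, with a response of −0.75 (SE 0.07), so that the highest 15 min array almost met the lowest 0 min array.

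The 4 genes of the upstream activating factor, which binds the upstream element of the same promoter together with histones H3 and H4, had a median response of 0.07, against −1.54 for the 3 of the core factor. *UAF30* fell slightly, by 0.26 (SE 0.07; limma, adjusted p = 0.00249), with overlapping arrays. *RRN10* rose slightly, to −0.21, 0.08 and 0.37 at 15 min, against −0.37, −0.18 and 0.00 at 0 min, a response of 0.26 (SE 0.06; limma, adjusted p = 0.000498). *RRN5* and *RRN9* had responses of 0.08 (95% interval −0.09 to 0.25; adjusted p = 0.378 by limma) and 0.07 (−0.11 to 0.24; adjusted p = 0.476 by limma), and these intervals exclude a change of the size seen in *RRN6* or in any subunit. The group means of *RRN10* were 0.22, 0.05, −0.01 and 0.17 at 15 min (*S. paradoxus*, C.P., P.C. and *S. cerevisiae* alleles), against −0.23, −0.07, −0.20 and −0.12 at 0 min. Over the same alleles in the same order, *RRN5* averaged −0.09, −0.05, 0.08 and 0.09 at 15 min, against 0.03, −0.11, −0.03 and −0.18 at 0 min. *RRN9* averaged 0.31, 0.00, 0.02 and 0.12 at 15 min, against 0.02, 0.04, −0.04 and 0.16 at 0 min. In none of these 3 genes did the 2 times separate.

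**Figure D3:**
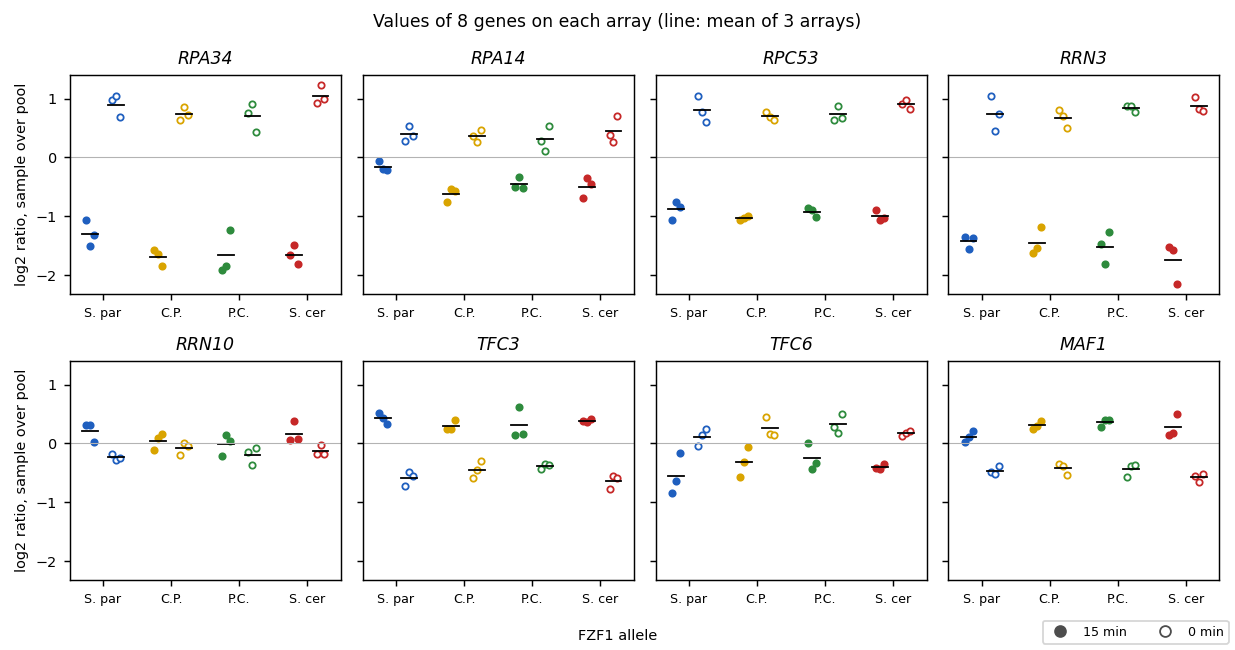
Log2 ratio of sample over pool (y axis) of 8 genes on each of the 24 arrays, by *FZF1* allele (x axis), with 15 min as filled and 0 min as open points and the mean of 3 arrays as a line. The 15 min points lie below the 0 min points for *RPA34*, *RPA14*, *RPC53* and *RRN3*, above them for *TFC3* and *MAF1*, and overlap them for *RRN10* and *TFC6*.

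TFIIIC, the 6-subunit complex that binds the internal promoters of transfer RNA genes, moved in both directions. Of its genes 3 rose, 2 fell and 1 did not pass, with a median response of 0.27, where 39.5% of all genes rose and 39.6% fell. *TFC3* (YAL001C), the subunit that contacts the B box, rose the most of the 42 genes. It read 0.14, 0.37 and 0.62 at 15 min, against −0.77, −0.51 and −0.30 at 0 min, a response of 0.87 (SE 0.06), 1.82-fold higher (limma, adjusted p = 1.84e-11). *TFC7* followed with −0.05, 0.39 and 0.82 at 15 min, against −0.58, −0.35 and −0.17 at 0 min, and a response of 0.71 (SE 0.08). *TFC8* rose by 0.48 (SE 0.10; limma, adjusted p = 0.000287), with overlapping arrays.

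*TFC6* and *TFC4* went the other way, with responses of −0.60 (SE 0.08; limma, adjusted p = 1.01e-06) and −0.58 (SE 0.10; limma, adjusted p = 1.42e-05). *TFC6* read −0.85, −0.38 and 0.00 at 15 min, against −0.04, 0.18 and 0.51 at 0 min. *TFC4*, the subunit that recruits TFIIIB, read −0.60, −0.27 and 0.16 at 15 min, against −0.03, 0.41 and 0.65 at 0 min, and both genes thus overlapped a little between the times. *TFC1*, which contacts the A box, had a response of 0.06 (SE 0.07; limma, adjusted p = 0.425). Of the arm of the complex that binds the A box (*TFC1*, *TFC4*, *TFC7*) and of the arm that binds the B box (*TFC3*, *TFC6*, *TFC8*), each held at least 1 gene that rose and 1 that fell.

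The same opposition held in each allele. With the *S. paradoxus*, C.P., P.C. and *S. cerevisiae* alleles *TFC3* averaged 0.43, 0.30, 0.31 and 0.39 at 15 min, against −0.58, −0.45, −0.38 and −0.64 at 0 min. *TFC6* averaged −0.55, −0.31, −0.25 and −0.40 at 15 min, against 0.12, 0.25, 0.32 and 0.17 at 0 min. *TFC4* averaged −0.18, −0.24, −0.12 and −0.34 at 15 min, against 0.33, 0.35, 0.44 and 0.31 at 0 min.

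Of TFIIIB, the factor that places RNA polymerase III at the start site, the TATA binding protein *SPT15*, which also serves RNA polymerase I and II, fell, while the other 2 genes stayed close to 0. It read −0.78, −0.57 and −0.29 at 15 min, against 0.24, 0.39 and 0.55 at 0 min, a response of −0.98 (SE 0.05; limma, adjusted p = 8.64e-13). *SPT15* averaged −0.45, −0.67, −0.55 and −0.61 at 15 min with the *S. paradoxus*, C.P., P.C. and *S. cerevisiae* alleles, against 0.34, 0.42, 0.44 and 0.43 at 0 min. *BDP1* had a response of 0.08 (SE 0.13; limma, adjusted p = 0.569), and its arrays overlapped widely. *BRF1*, the TFIIB-like subunit, passed narrowly with a response of 0.15 (SE 0.07; limma, adjusted p = 0.0439), and 21 of 38 alternative settings ended that call (adjusted p from 0.00953 to 0.22). It averaged 0.15, 0.14, 0.11 and 0.14 at 15 min, against −0.01, −0.11, 0.01 and 0.05 at 0 min, in the same order of alleles.

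*MAF1* (YDR005C), the repressor of RNA polymerase III, rose. It read 0.02, 0.27 and 0.50 at 15 min, against −0.65, −0.51 and −0.35 at 0 min, a response of 0.74 (SE 0.05), 1.67-fold higher (limma, adjusted p = 2.22e-11). By allele, it averaged 0.12, 0.31, 0.36 and 0.27 at 15 min (*S. paradoxus*, C.P., P.C. and *S. cerevisiae* alleles), against −0.47, −0.42, −0.44 and −0.57 at 0 min, and every group at 15 min lay above every group at 0 min. Maf1 is known to be regulated mainly through phosphorylation of the protein, which arrays do not measure.

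Set side by side, the subunits moved in 1 direction and the initiation factors in both. All 24 subunits fell, with a median of −1.54, and 22 of them lay among the lowest 10% of all responses. Of the 17 initiation factors 8 fell, 5 rose and 4 did not pass, with a median of 0.06, and 3 (*RRN3*, *RRN11*, *RRN7*) lay among the lowest 10%. Of all genes 39.6% fell and 39.5% rose, so movement in both directions does not set these factors apart. The mean response of 12 of the 17 lay above that of every subunit. So did the median of all genes (0.01), and *RPA14*, a subunit, stood at percentile 14.0 of all genes. This count therefore does not set the factors apart from other genes. On single arrays the median over the 24 subunits ranged from −1.07 to −0.59 at 15 min, against 0.49 to 0.78 at 0 min, whereas the median over the 17 factors ranged from −0.22 to 0.07 at 15 min, against −0.04 to 0.29 at 0 min. As counts and medians over lists these values carry no test of the difference between the classes.

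RNA polymerase II, which transcribes messenger RNA, gave a comparison on the same arrays. Of its 7 subunits that it does not share, 6 fell and 1 rose, none changed 2-fold and the median response was −0.33, where 39.6% of all genes fell and 39.5% rose. The largest subunit, *RPO21*, had a response of −0.59 (SE 0.14), and *RPB4*, a stalk subunit, was the one that rose, by 0.17 (SE 0.07; limma, adjusted p = 0.0264). The highest response of a shared subunit (*RPB10*, −0.73) was thus below the lowest of the subunits that only RNA polymerase II uses. Of 16 initiation factors of RNA polymerase II measured (17 listed), 6 fell, 3 rose and 7 did not pass, with a median of 0.01, close to that of the RNA polymerase I and III factors. The lowest of these were the TFIIH helicases *SSL2* at −0.92 (SE 0.09) and *RAD3* at −0.81 (SE 0.09), which also act in DNA repair.

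**Figure D4:**
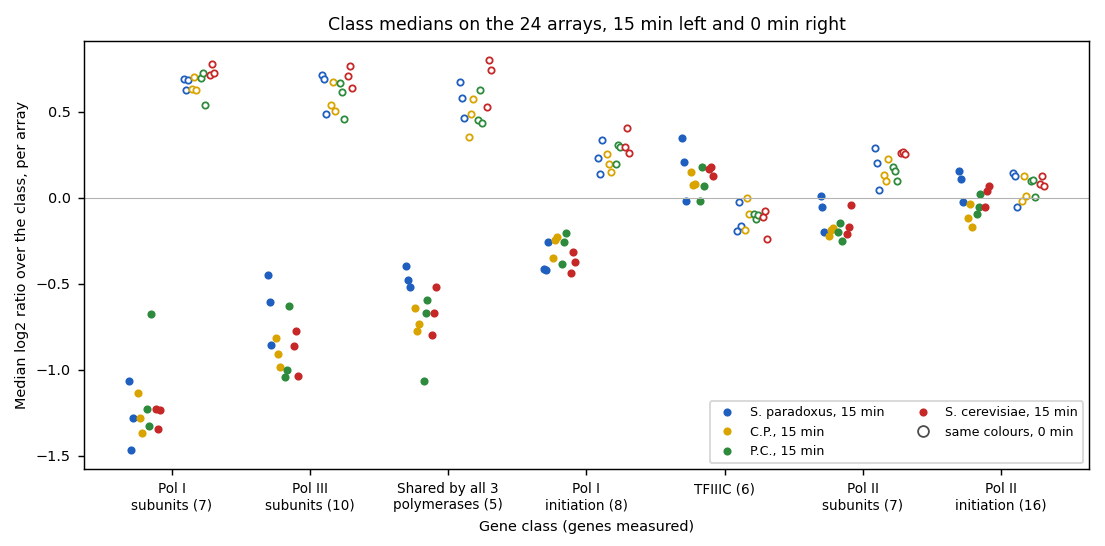
Median log2 ratio over the genes of a class (y axis) on each of the 24 arrays, with 15 min (filled) left of 0 min (open) in each class (x axis, number of genes measured in brackets) and alleles in colours. The 2 times are far apart for the subunits of RNA polymerase I and III (−1.47 to −0.68 against 0.54 to 0.78 for RNA polymerase I) and close together for the subunits and factors of RNA polymerase II.

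Other genes that act with these polymerases mostly fell by less than the subunits. Of 9 further factors measured (10 listed) 8 fell and 1 rose, with a median of −0.49, where 39.6% of all genes fell and 39.5% rose. The lowest were *LHP1*, the La protein that binds new RNA polymerase III transcripts, at −1.22 (SE 0.07) and *FOB1*, which blocks replication forks in ribosomal DNA, at −1.16 (SE 0.07). *PZF1* (TFIIIA), needed for 5S RNA, had a response of −0.34 (SE 0.10), and *HMO1*, which binds ribosomal DNA, one of −0.35 (SE 0.05). Of 7 genes of polymerase assembly and import 2 were analysed here: *BUD27*, a prefoldin-like protein, at −1.92 (SE 0.07), and *IWR1*, which carries RNA polymerase II into the nucleus, at 1.02 (SE 0.05). Among 13 kinases, phosphatases and other regulators upstream, 6 fell, 3 rose and 4 did not pass, with a median of −0.19, so these counts do not set them apart from all genes. The lowest response of the 13 was that of *SCH9*, a kinase that promotes both polymerases and phosphorylates Maf1, at −1.14 (SE 0.07). The highest was that of *KNS1*, a kinase that acts on RNA polymerase III under stress, at 0.41 (SE 0.10), and *TOR1* had one of −0.65 (SE 0.07).

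The response was of the same direction whichever *FZF1* allele was present. For the *S. paradoxus* allele 30 members fell and 5 rose (of all genes 59.9% passed, 29.7% downward and 30.3% upward). For C.P. the counts were 30 and 3 (58.6% passed, 29.3% in each direction) and for P.C. 31 and 4 (57.3% passed, 28.6% downward and 28.7% upward). For the *S. cerevisiae* allele 32 fell and 4 rose (58.3% passed, 29.4% downward and 29.0% upward), also without the array that goes against its label. The sign was the same with all 4 alleles for all 24 subunits and for 14 of the 17 initiation factors. *RRN5*, *RRN9* and *TFC1* were the exceptions, none of which passed in the mean response. The share of all genes that kept 1 sign over the alleles was not computed, so this agreement does not set the members apart. The 4 alleles share no samples, but their tests share 1 estimate of the spread.

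The median response of the 24 subunits was −1.40 for *S. paradoxus*, −1.51 for C.P., −1.46 for P.C. and −1.76 for *S. cerevisiae* alleles (−1.74 without the array that goes against its label). For 14 subunits the lowest of the 4 responses was that with the *S. cerevisiae* allele, for 4 that with the *S. paradoxus* allele and for 3 each that with a chimera, or 16, 4 and 2 each without that array. For 15 subunits the highest was that with the *S. paradoxus* allele and for 9 that with the P.C. chimera, with or without it. Among the 408 genes that fell at least 2-fold, the *S. cerevisiae* allele gave the lowest response for 48.0% and the *S. paradoxus* allele for 34.1% (51.7% and 32.8% without that array). The highest of the 4 was that with the P.C. chimera for 178 of these genes and that with the *S. paradoxus* allele for 145 (192 and 146 without that array). These 408 include 22 of the subunits, and the order itself was not tested.

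As fitted, no single member passed a test of allele, and this depended on the setting. None of the 42 passed the F-test of allele over both times (3 genes of 4071, 0.0737%, smallest adjusted p of a member 0.749 by limma) or of allele by time (0 genes; smallest 0.666 by limma). At an unadjusted p under 0.05, 5 members passed the first (11.9%, against 5.90% of all genes) and 3 the second (7.14%, against 5.35%). Between the *S. paradoxus* and *S. cerevisiae* alleles no member passed at 15 min (2 genes passed, 0.0491%), at 0 min or in response (0 genes each), and at an unadjusted p under 0.05 the count of members was 7 at 15 min (16.7%, against 8.57%), 2 at 0 min (4.76%, against 2.85%) and 7 in response (16.7%, against 9.60%). The coding region and the 5′ noncoding region alone gave no member at an unadjusted p under 0.05, against 1.92% and 1.01% of all genes (after adjustment 0.0491% and 0 of all genes passed). Their combination, which sets both full length alleles against both chimeras over both times, gave 11 at that level (26.2%, against 14.5%), 9 of them higher with the full length alleles, and none after adjustment (0.0246% of all genes; smallest adjusted p 0.191 by limma). With array weights 5 members passed for allele (11.9%, against 10.2% of all genes), 7 between the full length alleles at 15 min (16.7%, against 26.6%) and 8 for the combination of regions (19.0%, against 13.0%). Without replicate 3 of every group, the Cy5 array in all groups but P.C. at 15 min, 6 passed for allele (14.3%, against 5.75%) and 12 for the combination (28.6%, against 18.2%). Counts of members by the study's own analysis of variance, at an unadjusted P under 0.01, were 7 for allele and 9 for allele by time (16.7% and 21.4%, against 12.1% of all genes for either term). That model takes the features of a gene on 1 array as separate observations.

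The 3 members with the smallest p for allele by time were *RPC10*, *RRN11* and *RPA135*. They were chosen by that p, so their values, intervals and subsets of the same arrays lend it no further support. *RPC10* read −0.52, −0.69 and −0.53 at 15 min with the *S. paradoxus* allele, above all arrays with the *S. cerevisiae* allele at −1.03, −0.93 and −0.95. At 0 min it read 0.68, 0.53 and 0.54 for *S. paradoxus*, against 0.69, 0.90 and 0.87 for *S. cerevisiae*, in the opposite order. The C.P. and P.C. chimeras averaged −0.97 and −0.94 at 15 min, against 0.55 and 0.55 at 0 min. The responses of *RPC10* were −1.16 with the *S. paradoxus* allele, −1.52 and −1.49 with the C.P. and P.C. chimeras and −1.79 with the *S. cerevisiae* allele, and the difference of 0.63 between the full length alleles (95% interval 0.32 to 0.93) did not pass after adjustment (adjusted p = 0.327 by limma). Without the array that goes against its label it was 0.59, and on the Cy3 arrays alone 0.57.

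*RRN11* with the *S. paradoxus* allele read −0.53, −0.61 and −0.77 at 15 min, against −0.84, −1.07 and −1.75 with the *S. cerevisiae* allele. At 0 min it read 0.48, 0.52 and 0.47 for *S. paradoxus*, against 0.87, 0.95 and 0.66 for *S. cerevisiae*. The groups did not overlap at either time, and the share of all genes that separate in this way was not computed. Its response was −1.13 for *S. paradoxus*, −1.78 for C.P., −1.91 for P.C. and −2.05 for *S. cerevisiae*. This was the largest difference of the 42 genes between the full length alleles, 0.92 (95% interval 0.42 to 1.42; adjusted p = 0.396 by limma), or 0.86 without the array that goes against its label and 0.80 on the Cy3 arrays alone. The chimeras lay nearer to the *S. cerevisiae* allele, with averages of −1.21 (C.P.) and −1.26 (P.C.) at 15 min, against 0.57 and 0.65 at 0 min.

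*RPA135* differed in the opposite direction. With the *S. paradoxus* allele it read −1.91, −1.77 and −1.28 at 15 min, against −1.08, −1.34 and −1.21 with the *S. cerevisiae* allele, and at 0 min 0.55, 0.45 and 1.04 for *S. paradoxus*, against 0.66, 0.54 and 0.58 for *S. cerevisiae*. With the C.P. and P.C. chimeras *RPA135* averaged −1.13 and −0.87 at 15 min, against 0.65 and 0.63 at 0 min. Its responses were −2.34 (*S. paradoxus*), −1.78 (C.P.), −1.50 (P.C.) and −1.80 (*S. cerevisiae*), a difference of −0.53 between the full length alleles (95% interval −1.04 to −0.03; adjusted p = 0.512 by limma), or −0.50 without the array that goes against its label and −0.53 on the Cy3 arrays alone. Of the members with the smallest p for allele over both times, *RPC10* came first, followed by *RRN7* and *RPO26*. With the *S. paradoxus*, C.P., P.C. and *S. cerevisiae* alleles *RRN7* averaged −0.69, −0.97, −1.08 and −0.99 at 15 min, against 0.67, 0.56, 0.59 and 0.62 at 0 min. *RPO26* averaged −0.49, −0.86, −0.88 and −0.79 at 15 min, against 0.71, 0.49, 0.39 and 0.68 at 0 min. In both genes the *S. paradoxus* allele gave the highest mean at 15 min.

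Within both polymerases the 2 large catalytic subunits went against the smaller ones in this comparison, a split that was noticed in the values and carries no test. The difference of response, *S. paradoxus* minus *S. cerevisiae* allele, was −0.53 for *RPA135*, −0.30 for *RPO31*, −0.27 for *RPA190* and −0.17 for *RET1*, so that all 4 fell further with the *S. paradoxus* allele. Of the other 20 subunits 19 fell further with the *S. cerevisiae* allele, with a median difference of 0.32 and a range of −0.01 (*RPC40*) to 0.65 (*RPC19*). Without the array that goes against its label it was all 20 (median 0.26), and on the Cy3 arrays alone 18 (median 0.31), with the 4 large subunits below 0 both times. Both subsets come from the arrays in which the split was noticed, and the genes share these arrays, so the recounts lend it no further support. The limma interval of the difference included 0 for *RPO31* (−0.78 to 0.17), *RPA190* (−0.67 to 0.14) and *RET1* (−0.58 to 0.23). That of *RPA135* lay below 0 (−1.04 to −0.03). Over all genes 52.3% had a positive difference. The largest subunits of RNA polymerase II, *RPO21* and *RPB2*, had differences of −0.58 and −0.11.

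Gene length moved with this difference. The genes of the 4 large subunits measure 3450 to 4995 bases and those of the other 20 measure 213 to 1965 bases (RefSeq annotation of assembly R64). Across the 24 subunits the difference had a Spearman correlation of −0.71 with gene length, against −0.64 over the 42 genes and −0.22 over 4063 genes with a length. Genes are not independent and share the same arrays. The longest genes among the initiation factors, *TFC3* (3573 bases), *TFC4* (3078) and *RRN6* (2685), had differences of −0.02, 0.13 and −0.03. On the arrays themselves the value correlated with gene length by −0.16 on average with the *S. paradoxus* allele at 15 min and by −0.10 with the *S. cerevisiae* allele at 15 min, against 0.01 and −0.01 at 0 min. Single arrays at 15 min ranged from −0.23 to −0.08 (*S. paradoxus*) and from −0.18 to −0.03 (*S. cerevisiae*), so these groups overlapped. With the length trend of each array removed the 4 large subunits differed by −0.48 to −0.13. The 20 others differed by 0.01 to 0.54 (median 0.27), where the median of all genes was 0.03. The trend was fitted over all genes, among which length and difference are less correlated than among the subunits, so gene length as a source of the split was not tested.

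**Figure D5:**
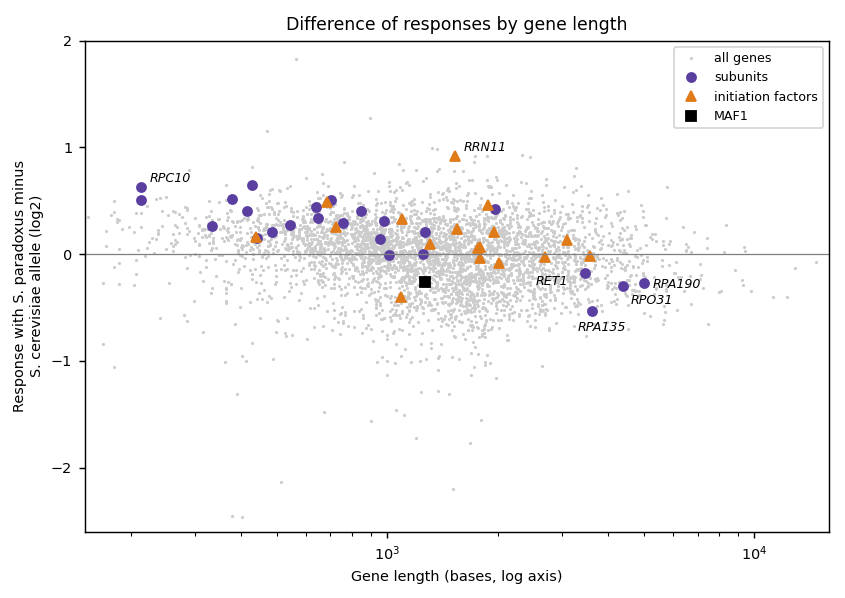
Difference of response between the *S. paradoxus* and *S. cerevisiae* alleles (log2, y axis) by gene length in bases (x axis, log scale), for all genes with a length (grey) and for the subunits, initiation factors and *MAF1*. The 4 subunits with the longest genes lie at −0.53 to −0.17 and the other 20 at −0.01 to 0.65.

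Around their group means the members varied together only weakly. The deviations of 2 subunits correlated over the 24 arrays with a median of 0.11 (276 pairs, range −0.72 to 0.96), those of 2 initiation factors with a median of 0.02 (136 pairs) and those of any 2 genes with a median of 0.00. For the 4 large subunits the deviations correlated positively with the length slope of the array (0.30 to 0.85), whereas for the other 20 subunits the median was −0.35 and 16 were below 0. The 17 initiation factors had a median of −0.27, with 11 below 0. Of 4067 genes with complete values 1965 were below 0, with a median of 0.02.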

How the data were processed

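Agilent yeast V2 arrays with 2 colours gave the values, 24 in all, where Cy3 labelled the sample on 16 and Cy5 on 8. Cy5 labelled replicate 3 in every group but P.C. at 15 min, where it labelled replicate 2. Values were used as deposited by the authors, log2 ratios of sample over pool, median normalized on each array and turned to one direction (arrays of a group with opposite dyes correlated with a median of 0.654 over 16 pairs, lowest 0.483). A background correction is not given in the sources used here, and the unit leaves signal and depth unknown. Of 15744 features, 12341 are complete over the arrays and 875 are empty throughout.

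Features were joined to gene symbols by their position on the array. The median correlation of the 2 features of a gene was 0.928 (4060 genes) under that match and −0.01 under equal numbers, and the match rests on the data. A single symbol was listed for 8152 features, and the 7592 without one did not enter, which gives 4073 genes, with 125 symbols brought up to date through RefSeq names. Features were averaged per gene and arrays centred on the median gene.

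The 8 group means were fitted with limma 3.58.1 (R 4.3.3) for 4071 genes, each measured on 2 or more arrays per group, with contrasts for responses, alleles and regions and F-tests for allele and allele by time. The Benjamini-Hochberg limit was 0.05. Fits were tested on simulated data. In these fits each array counts as 1 observation, so that p-values from limma measure the spread between arrays. The study's analysis of variance was repeated on features at P under 0.01. There each array enters once per feature of a gene, so its p-values treat features of the same array as separate observations. Tables and plots used Python 3.11.15, numpy 2.4.6, pandas 2.3.3, SciPy 1.17.1 and matplotlib 3.10.9.

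The members and all gene lists were chosen with earlier results of these data known. Every member is named with its mean response or its class. Group means are given for the lowest and highest of each class, those of opposite sign to their class median, the 3 smallest p of each F-test, and *RRN3*, *SPT15* and *MAF1*. The gene length trend, the test on both features alone and the allele differences on subsets of arrays were added after the values were seen. No sequences were used here.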

Additional observations from a re-analysis of the deposited data

How the results depend on the processing

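The count of members that passed in the mean response was 37 to 38 in all 41 alternatives. Direction was not counted in the study's analysis of variance, and in each of the others 32 fell and 5 to 6 rose. The alternatives were a dye term, blocks, no centring of genes, quantile normalization, array weights, single features, complete genes, Cy3 arrays alone, an adjusted p under 0.01, the study's analysis of variance, the gene length trend removed, both features alone, and leaving out each array or replicate number. Without 1 array or number the counts were 31 to 37 with the *S. paradoxus* allele, 31 to 35 with the C.P. chimera, 30 to 35 with the P.C. chimera and 32 to 37 with the *S. cerevisiae* allele. Of 1596 member responses under alternatives, 1574 kept direction and call, 21 lost the call (all *BRF1*) and 1 reversed: *BDP1*, at −0.021 to 0.21 when arrays or replicate numbers were left out, the lowest without replicate 1.

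Members passing tests of allele, 0 as reported, depended on the setting, and the cause was not tested. Array weights gave 5 for allele (11.9%, against 10.2% of all genes), 2 for allele by time (4.76%, against 3.32%), 7 between the full length alleles at 15 min (16.7%, against 26.6%), 2 in response (4.76%, against 5.04%) and 8 for coding by noncoding region (19.0%, against 13.0%). Cy3 arrays alone gave 1 for allele, 1 at 15 min (2.38% each, against 4.52%) and 7 for coding by noncoding region (16.7%, against 12.5%). Leaving out arrays gave 0 to 6 for allele and 0 to 12 for coding by noncoding region, the highest without replicate 3 (14.3%, against 5.75%, and 28.6%, against 18.2%). The study's analysis of variance, with each feature as an observation, gave 7 for allele and 9 for allele by time. With the length trend removed, the response difference between the full length alleles turned positive for *RPC40* (0.0077), *RRN6* (0.031), *TFC3* (0.034) and *BDP1* (0.069), none of which had passed.

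Each culture was sampled at both times by the methods, but the replicate numbers were not shown to pair the samples. Over 12 pairs of arrays of an allele with the same number at 15 min and 0 min, deviations correlated by −0.47 to 0.76 (8 above 0.1). The range was 0.41 to 0.76 in the 6 pairs of the full length alleles and −0.47 to 0.39 in the 6 of the chimeras, and 7 arrays correlated best with their own number. The dye went with the number except for P.C. There, replicate 2 at 15 min and replicate 3 at 0 min (both Cy5) correlated by 0.42, against −0.47 for replicate 3 at both times (Cy3 and Cy5). A shared number 3 and a shared dye cannot be told apart for the other alleles. With the replicate block 38 members passed in the mean response, and 37, 34, 36 and 37 with the *S. paradoxus*, C.P., P.C. and *S. cerevisiae* alleles, and no allele test gained a member; with allele and number together as a random culture replicate block the counts were 38 and 37, 35, 35 and 37, again with no member for allele. Only ratios to a pool were used, so signal over background does not enter the precision given.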
